A study of Camelus bactrianus with 10 samples.

Results

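The small RNA table of this study lists 39 entries under 4 miRNA names whose sequences have been set apart as resembling fragments of ribosomal RNA: miR-2887, first named in cattle, and miR-5112, miR-5126 and miR-6240, named in mouse. They were found by name, dropping the species prefix and any note of changed ends, and keeping both arms, and they are 39 of the 2581 listed small RNAs. MiR-2887 has 3 entries, miR-5112 has 11, miR-5126 has 9 and miR-6240 has 16. These names were chosen by their sequences and selected on normalized counts of the same 10 libraries, whose thin against normal values were already known, so the levels and differences below are a description, and no p-value is given for any of them. The label rests on sequence resemblance, and no ribosomal RNA sequence was used here to check it.

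The libraries came from exosomes in the blood plasma of Bactrian camels (Camelus bactrianus), 5 thin animals weighing 412 ± 7.74 kg and 5 normal animals weighing 479 ± 17.1 kg (SD, n = 5 each), with 1 library per animal. No treatment of the animals is labelled for either group, exosomes of both were obtained by supercentrifugation, and age is not given in the sources used here. Plasma exosomes are a mixture from many cell types, so fewer vesicles of one cell type and less RNA per vesicle cannot be told apart. The protocol text counts 9 libraries where 10 are labelled and tabulated. The series asks how plasma exosomes of normal and thin camels differ and how they affect liver cancer, of which the small RNA of the exosomes is described here.

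A miRNA is cut from a hairpin precursor by the enzymes Drosha and Dicer, which leaves a 5′ and a 3′ arm with defined ends, and it finds its targets through its seed, bases 2 to 8. Ribosomal and transfer RNAs are by far the most abundant RNAs of a cell, and their breakdown or regulated cleavage gives short pieces of many lengths and ends. Such pieces are carried in blood plasma, and some entries of miRNA catalogues have been questioned because they match them. Per the labels' protocols, the program ACGT101-miR had removed reads of ribosomal, transfer, small nuclear and small nucleolar RNA before the table was made, and the 39 entries are therefore what remained after that step.

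The leading sequences of each name by mean level over the 10 libraries are shown first, 5′ to 3′ as the deposited table gives them, with the seed in capitals. For miR-6240, 3 sequences of the leading group are shown because they share 1 value.
mmu-mir-6240-p5_1: gATTTCTGcccagtgctct
mmu-mir-6240-p3_3: tTTCTGCCcagtgctctg
mmu-mir-6240-p5_2: tCTGCCCAgtgctctgaa
mmu-mir-5112-p3_1ss2GC: gCGTGTAGctcagcgggaga
mmu-mir-5112-p5_1ss2GC: gCGTGTAGctcagcggga
bta-mir-2887-1-p3_1ss2CT: cTGGGACAcggggcgcgg
mmu-miR-5126_R-4_1ss18CT: gCGGGCGGggccgggggt
The 3 miR-6240 sequences begin at different bases, so each has another seed, although one of them is named a 3′ arm and the others 5′ arms. Across all 16 miR-6240 entries there were 12 different seeds. MiR-5112 had 8 seeds among 11 entries, miR-5126 had 4 among 9 and miR-2887 had 3 among 3. No seed was shared between names, and the seed held by most entries was found in 3 of them.

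The overlapping entries of each name were joined where they shared a run of at least 10 bases, starting from the most abundant one. Capitals mark the longest run held by the most entries of the name.
miR-6240: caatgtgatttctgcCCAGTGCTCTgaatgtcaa
miR-5112: ggcgtgtagCTCAGCGGGAgagcacctc
miR-5126: gcgggCGGGGCCGGGGGTggggcc
Of the 16 miR-6240 entries, 15 could be placed on the stretch of 34 bases, 13 of them without a mismatch, and the capital run was present in 13. Entries named 5′ arm covered positions 1 to 32 and entries named 3′ arm covered positions 3 to 34 of that stretch, counted from its 5′ end, so both arms lay over the same bases. The exception, mmu-miR-6240_L-5R-1_1ss21AG, is the entry named after the mature miR-6240 itself. It shared no placement with the others, had a GC content of 80.0% and was listed above 0 in 5 libraries. All 11 miR-5112 entries lay on a stretch of 28 bases, and all 9 miR-5126 entries on a stretch of 24 bases. The leading miR-2887 entry could be joined with neither of the other 2, which were not tried against each other. Those 2 share a run of 9 bases, and the joining asked for at least 10.

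**Figure D1:**
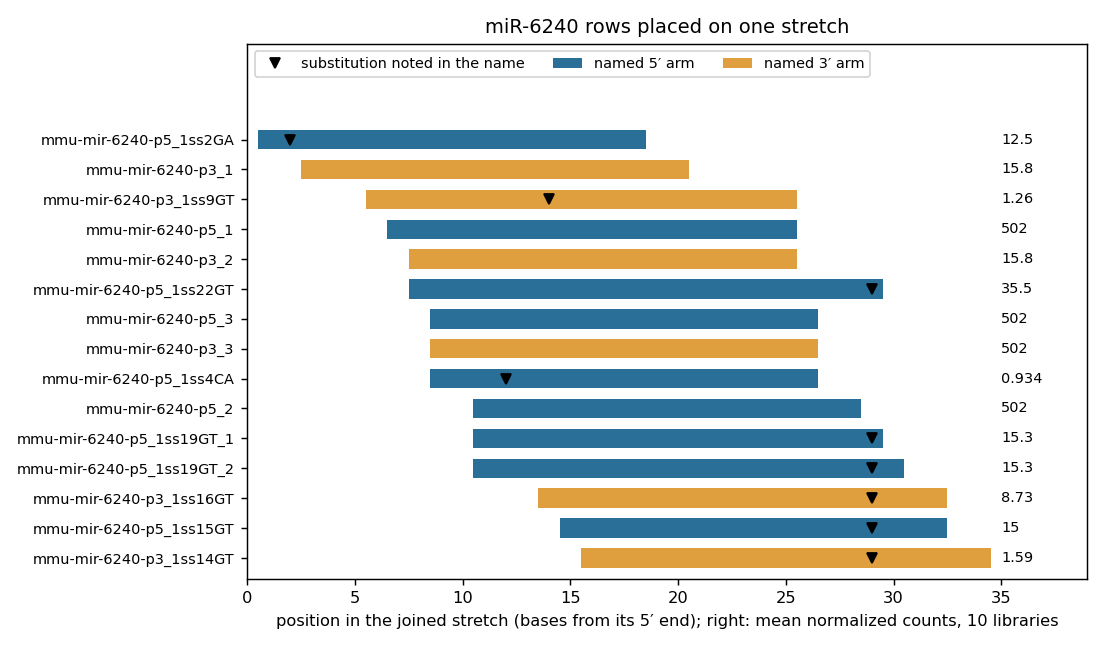
The 15 placed miR-6240 entries are drawn as bars along the joined stretch (x axis, bases from its 5′ end), coloured by the arm in the name, with a triangle at each noted substitution and the mean normalized count over 10 libraries at the right. Bars of both colours cover the same bases with stepped ends, and 6 triangles line up at position 29.

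Entry names note where a listed sequence departs from the catalogue entry by 1 base. Such a note was present in 24 of the 39 entries, or 61.5%, against 287 of the 930 other entries with a miRNA name, or 30.9%. Overlapping entries that carry the same departure were each counted in this share, so they are not separate cases. The note gives the catalogue base, its position from 1 at the 5′ end, then the listed base. For miR-6240, 6 entries carried G14T, G15T, G16T, G19T or G22T. On the joined stretch all 6 fell on position 29, and no other entry reached it. The other miR-6240 notes, G2A, C4A, G9T and A21G, stood on 1 entry each. For miR-5126, all 9 entries carried C13T, C14T or C18T, which fell on position 18 of its stretch each time. In these 2 sets the departure kept its place on the stretch while its place in the read shifted. For miR-5112, the 2 most abundant entries shared the note G2C.

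Several lines of the table repeat the same values. In 6 cases, entries of 1 name with different numbers or arms held identical values in all 10 libraries, and these 14 entries stood for 6 measurements. The 39 entries thus held 31 distinct sets of values. They held 37 distinct sequences, since 2 sequences were each listed under both arms. The leading miR-6240 set was listed under mmu-mir-6240-p5_1, mmu-mir-6240-p5_2, mmu-mir-6240-p5_3 and mmu-mir-6240-p3_3, across both arms, and its value belongs to the group and not to 1 sequence. Levels below count each repeated set once.

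The entries were short and, for 3 of the names, rich in G and C. Of the 39 entries, 16 or 41.0% were 18 bases long, the shortest length in the table, against 8.28% of other named entries and 10.2% of predicted small RNAs. Entries that overlap or repeat values were each counted here, so they are not separate cases. Median GC content was 94.7% for miR-5126, 81.0% for miR-2887 and 66.7% for miR-5112, which was higher than in 99.2%, 97.1% and 92.4% of the other named entries. For miR-6240 it was 52.6%, against a median of 47.6% over other named entries.

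**Figure D2:**
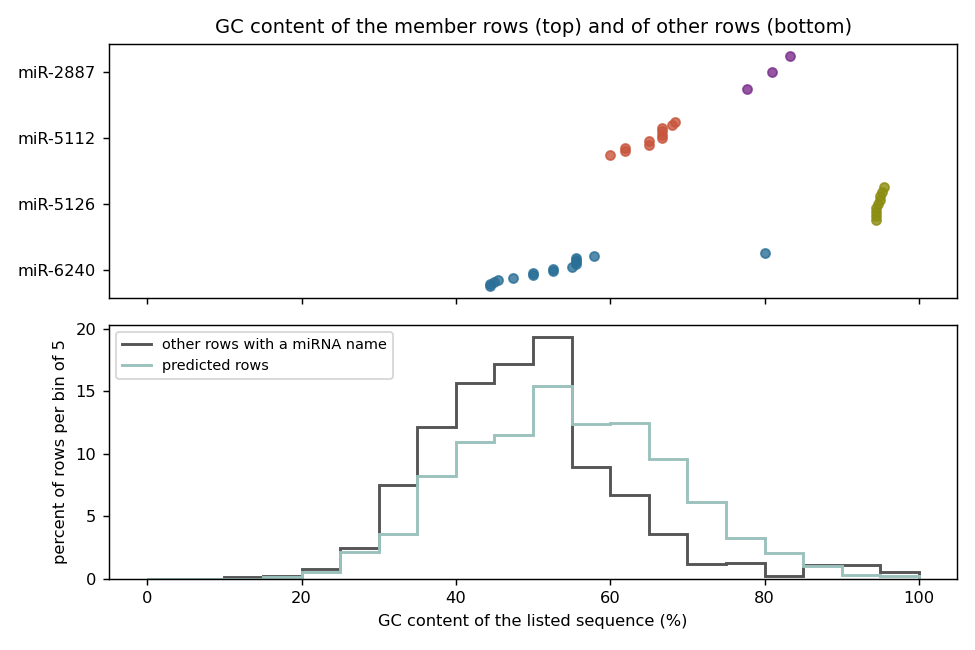
The upper panel shows the GC content (x axis, percent) of every entry of the 4 names, 1 point each, and the lower panel the share of other named and of predicted entries per 5-point bin (y axis, percent of rows). MiR-5126 and miR-2887 lie in the right tail of both lower curves, while all miR-6240 entries but the one at 80.0% lie under their main body.

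The letters of miR-5112 match a pattern of another structural RNA than the label names. A form of box A, the inner promoter element of transfer RNA genes that also encodes part of their D arm, was searched on both strands allowing any base at some of its variable positions. It was found on the listed strand in 9 of the 11 miR-5112 entries, or 81.8%, in none of the entries of the other 3 names, and in 0.236% of the 2542 entries outside the 4 names. On the opposite strand it was found in none of the 39 entries and in 0.118% of the others. The 11 miR-5112 entries overlap on the same joined stretch, so the 9 matches are not separate cases. Their share of 81.8% can therefore not be weighed against the 0.236% of the other entries. A match describes the letters only, and miR-5112 is called by its name below.

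Together the 4 names made up 0.143 ± 0.0668% of the normalized counts in thin and 0.168 ± 0.117% in normal libraries (SD, n = 5 each), with a range of 0.0585% to 0.347% over the 10 libraries. MiR-6240 held between 45.6% and 73.5% of the 4 names' sum, with a median of 62.7%. MiR-5112 had a median of 28.4% and a range from 5.23% to 51.1%, and was above miR-6240 in thin 2 and thin 3. MiR-2887 and miR-5126 had medians of 3.91% and 3.42%. By estimated reads, the 4 names had 955 to 1759 reads in thin and 2173 to 3190 reads in normal libraries. These reads are not scaled for depth, so they do not compare the groups. In normalized counts the sum overlapped, at 405 to 1293 in thin and 434 to 2363 in normal libraries.

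Whole libraries held 532999 to 692847 normalized counts in thin and 655636 to 757352 in normal camels. The worth of 1 read was estimated from the step between low values, which gave 505263 to 2938274 reads in thin and 787409 to 4474902 in normal libraries. The 3 deepest were thin 4, normal 4 and normal 5, and earlier results of these data had set normal 4 and normal 5 apart from the rest. Nearly all listed values were worth at least 5 reads, so an entry at 0 may still have had up to about 5 reads. As a check of the plasma label, miRNAs of red blood cells made up 10.5% to 18.5% of thin and 18.2% to 33.6% of normal libraries (all 6 listed names present). Platelet miRNAs (all 4 names present) made up 6.28% to 10.2% of thin and 4.78% to 7.90% of normal libraries. Liver miRNAs (3 of 4 names present) made up 1.36% to 9.80% of thin and 3.14% to 13.3% of normal libraries. Leukocyte miRNAs (all 5 names present) made up 1.85% to 6.23% of thin and 2.57% to 4.30% of normal libraries. The part of these cell types in the results below was not tested.

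MiR-6240 had the highest mean of the 4 names in both groups, although miR-5112 was higher in thin 2 and thin 3. Its summed level was 655, 619, 449, 205 and 372 normalized counts in thin 1 to 5, against 1005, 1368, 775, 356 and 308 in normal 1 to 5. Normal 1 to 3 lay above every thin library, while normal 4 and normal 5 lay among the thin ones, so the groups overlapped. The means were 460.2 ± 185 in thin and 762 ± 446 in normal camels (SD, n = 5 each), a difference in mean log2(value + 1) of -0.61 ± 0.52 (SE). The 3 deepest libraries held 205 to 356 and the other 7 held 372 to 1368, so depth moved with this level, and its part was not tested. Without the 3 deepest libraries the groups no longer overlapped, with thin libraries at 372 to 655 and normal ones at 775 to 1368. Without normal 4 and normal 5 the difference was -1.26, again without overlap. Both choices leave out normal 4 and normal 5, the normal libraries that had overlapped with thin. The share of all small RNAs without overlap was not computed for these choices, so nothing is read from the separations.

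The leading miR-6240 group made up 76.7% to 85.5% of the name in every library. It held 532, 505, 369, 175 and 315 normalized counts in thin 1 to 5, against 771, 1170.2, 639, 297 and 246 in normal 1 to 5. Its order over the libraries is that of the whole name, with thin 4, normal 4 and normal 5 at the low end. The pair mmu-mir-6240-p3_1 and mmu-mir-6240-p3_2, which share their values, held 10.7, 5.27, 4.68, 3.69 and 11.9 in thin and 31.0, 53.6, 18.5, 7.76 and 10.6 in normal camels. Here normal 4 and normal 5 overlapped with thin, and normal 1 to 3 lay above all thin libraries. Entries that reach position 29 were less abundant than the leading group. Of them, mmu-mir-6240-p5_1ss22GT averaged more than the pair, at 32.8 ± 21.0 in thin and 38.2 ± 25.8 in normal camels. The others that reach position 29 averaged at most 15.3 over all libraries.

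MiR-5112 had both its highest and its lowest levels in normal libraries. Its summed level was 209.7, 661, 482, 135 and 333 normalized counts in thin 1 to 5, against 261, 881, 261, 45.9 and 22.7 in normal 1 to 5. The highest value was that of normal 2 and the lowest were those of normal 4 and normal 5, with all thin libraries between them. The means were 364 ± 212 in thin and 294 ± 347 in normal camels, a difference in mean log2(value + 1) of 1.10 ± 1.03 (SE). That direction rested on normal 4 and normal 5: without them the difference was -0.32, and without the 3 deepest libraries it was -0.02. The 3 deepest libraries held 22.7 to 135 and the other 7 held 209.7 to 881.

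The 2 leading miR-5112 entries, which start at the same base and differ in length by 2 bases at the 3′ end, had the same libraries at both ends of their range. The longer, mmu-mir-5112-p3_1ss2GC, held 113, 308, 221, 68.0 and 167 in thin 1 to 5, against 122, 414, 106, 5.78 and 4.15 in normal 1 to 5. The shorter, mmu-mir-5112-p5_1ss2GC, held 64.97, 162, 150.5, 35.03 and 102 in thin, against 102, 374, 93.7, 5.12 and 7.79 in normal camels. In both, normal 2 was highest and normal 4 and normal 5 were lowest. The longer entries mmu-miR-5112_L+5 and mmu-miR-5112_L+6 both end at position 25 of the stretch. The first begins at position 2, as the 2 leading entries do, and the second at position 1. In that order they averaged 36.4 ± 34.5 and 36.1 ± 26.3 in thin and 19.1 ± 19.3 and 20.4 ± 11.7 in normal camels. The entry mmu-miR-5112_L+6 was listed at 0 in thin 1, and its difference changed sign with single libraries left out.

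MiR-2887 was lower in every thin than in every normal library. Its summed level was 26.3, 0, 36.1, 31.8 and 28.6 normalized counts in thin 1 to 5, against 55.7, 53.6, 48.3, 76.9 and 86.9 in normal 1 to 5. The thin libraries other than thin 2 lay close together, and the highest of them was below the lowest normal library. By estimated reads these were 32, 0, 54, 138 and 36 in thin and 88, 62, 102, 466 and 524 in normal camels, so the shallow libraries rest on few reads. The means were 24.6 ± 14.2 in thin and 64.3 ± 16.7 in normal camels, a difference in mean log2(value + 1) of -2.01 ± 1.01 (SE). Without thin 2, where the name was listed at 0, it was -1.02. Groups that are apart in all 10 libraries stay apart in any part of them. The difference was -2.02 without the 3 deepest libraries and -1.76 without normal 4 and normal 5. Over the 468 small RNAs abundant enough to be tested, 7 or 1.5% were lower in every thin than in every normal library, and 10 or 2.14% were higher in every thin library. These shares are of single entries, and none was computed for sums of entries such as this level.

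The separation of miR-2887 rested on the sum of its entries. The leading entry, bta-mir-2887-1-p3_1ss2CT, held 26.3, 0, 36.1, 24.9 and 20.6 in thin, against 26.6, 53.6, 43.5, 38.3 and 72.0 in normal camels. Thin 3 was above normal 1, so this entry overlapped between the groups. The entry of the other arm, bta-mir-2887-1-p5, held 0, 0, 0, 2.30 and 7.93 in thin, against 29.1, 0, 4.73, 32.0 and 13.3 in normal camels.

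MiR-5126 was scarce. Its summed level was 0, 12.7, 18.1, 33.2 and 23.8 normalized counts in thin 1 to 5, against 53.1, 59.7, 41.7, 47.9 and 16.4 in normal 1 to 5. All normal libraries but normal 5 lay above all thin ones, and thin 1 was listed at 0. The means were 17.5 ± 12.4 in thin and 43.8 ± 16.7 in normal camels, a difference in mean log2(value + 1) of -1.82 ± 0.97 (SE), and -0.93 without thin 1. Without the 3 deepest libraries the groups did not overlap (-2.53), nor without normal 4 and normal 5 (-2.15). Both choices leave out normal 5, the normal library that had overlapped. The share of all small RNAs without overlap was not computed for them, so nothing is read from these separations either. The entry mmu-miR-5126_R-4_1ss18CT, 0% to 55.1% of the name by library, held 0, 0, 6.69, 4.61 and 0 in thin, against 29.1, 32.9, 10.4, 17.3 and 2.82 in normal camels. Normal 1 to 4 were all above the highest thin library. In thin camels mmu-miR-5126_L-1_1ss18CT was more abundant, at 8.08 ± 5.85 against 11.2 ± 5.48 in normal camels.

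**Figure D3:**
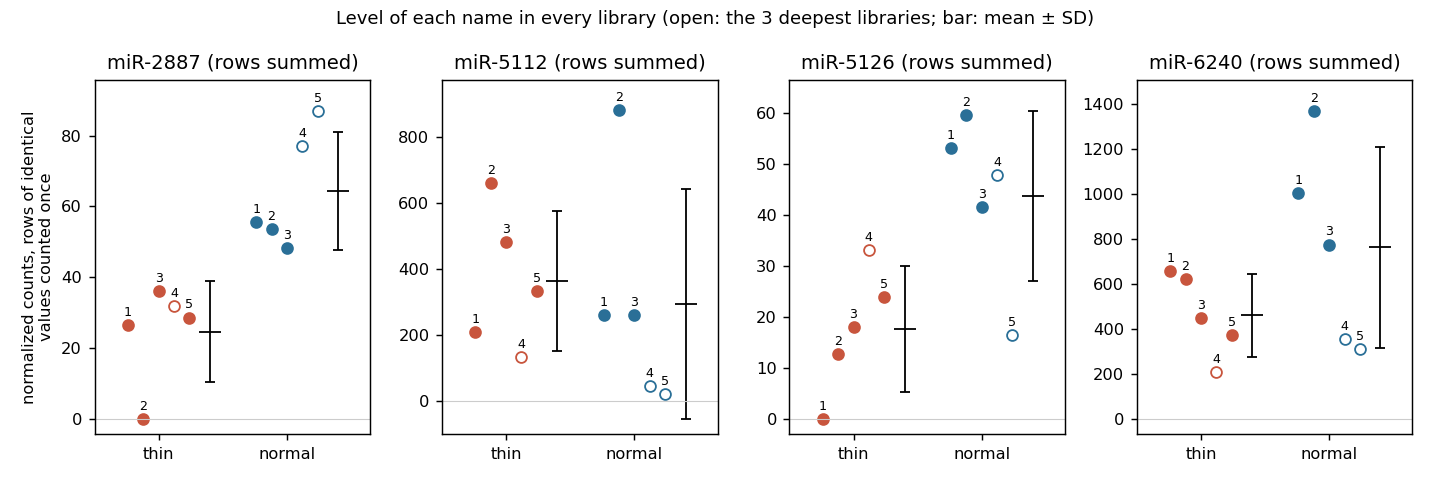
Each panel shows 1 name, with thin libraries at the left and normal libraries at the right, as summed normalized counts (y axis, linear, own scale per panel). Points are libraries with their replicate number, open points are the 3 deepest, and the black bar is the mean ± SD (n = 5). For miR-2887 the highest thin library, at 36.1, is below the lowest normal one, at 48.3, while the other 3 names overlap.

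The correlations between the 4 names depended on the deepest libraries. Spearman correlations of their summed levels, given as a description over 10 libraries that share their scaling, were 0.64 for miR-5112 with miR-6240, 0.56 for miR-2887 with miR-5126 and 0.36 for miR-5126 with miR-6240. They were 0.15 for miR-5112 with miR-5126, -0.05 for miR-2887 with miR-6240 and -0.44 for miR-2887 with miR-5112. Without the 3 deepest libraries (n = 7) they were 0.89 for miR-2887 with miR-5126, 0.68 for miR-2887 with miR-6240 and 0.64 for miR-5126 with miR-6240. Those of miR-5112 were then 0.32 with miR-5126, 0.04 with miR-6240 and 0.04 with miR-2887. The ratio of miR-5112 to miR-6240 was 0.32 to 1.07 in thin and 0.07 to 0.64 in normal libraries.

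**Figure D4:**
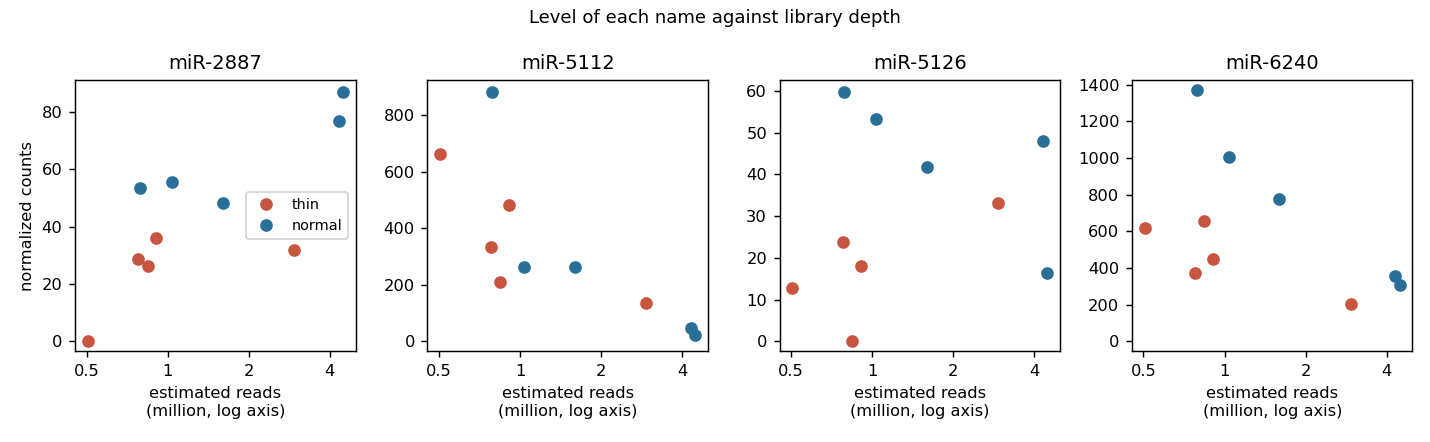
Each panel plots the summed normalized counts of 1 name (y axis) against the estimated reads of the library (x axis, log scale), with thin and normal libraries in different colours. The 3 deepest libraries are lowest in miR-5112 (22.7 to 135) and miR-6240 (205 to 356), but include the highest miR-2887 values (76.9 and 86.9).

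Across all small RNAs, limma was fitted to log2(value + 1) of the 468 entries with 10 or more normalized counts in at least 5 libraries. Of the 39 entries, 16 passed that filter, and they held 11 distinct sets of values: 5 of miR-6240, 4 of miR-5112 and 1 each of miR-2887 and miR-5126. None of the 16 passed an adjusted p of 0.05 (Benjamini-Hochberg over all 468), against 9 or 1.92% of all tested, of which 3 or 0.641% were lower in thin camels. None of the 16 separated the groups without overlap. None had an unadjusted p under 0.05 either, and only limma was run. Since the names were chosen with this contrast known, nothing is read from that count. Of the 11 sets, 5 had a log2 fold change above 0 and 6 below, with a median of -0.25, against -0.01 over all tested entries.

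By name, all 4 miR-5112 sets had log2 fold changes above 0, from 0.14 ± 1.09 (SE) for mmu-miR-5112_L+6 to 1.78 ± 1.09 for mmu-mir-5112-p3_1ss2GC. Of the 5 miR-6240 sets, 4 were below 0, from -1.73 ± 1.10 for mmu-mir-6240-p5_1ss15GT to -0.25 ± 0.71 for mmu-mir-6240-p5_1ss22GT, and mmu-mir-6240-p5_1ss19GT_1 was at 0.44 ± 0.77. The leading group was at -0.59 ± 0.46. The miR-2887 entry was at -1.68 ± 0.91 and the miR-5126 entry, mmu-miR-5126_L-1_1ss18CT, at -0.79 ± 0.89.. Without normal 4 and normal 5, 3 of the 4 miR-5112 sets turned below 0: mmu-miR-5112_L+6 to -0.57, mmu-mir-5112-p3_1ss2GC to -0.18 and mmu-mir-5112-p5_1ss2GC to -0.77, while mmu-miR-5112_L+5 was at 0.36. The set of mmu-mir-6240-p5_1ss19GT_1 turned to -0.46, and all 5 miR-6240 sets were then below 0.

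**Figure D5:**
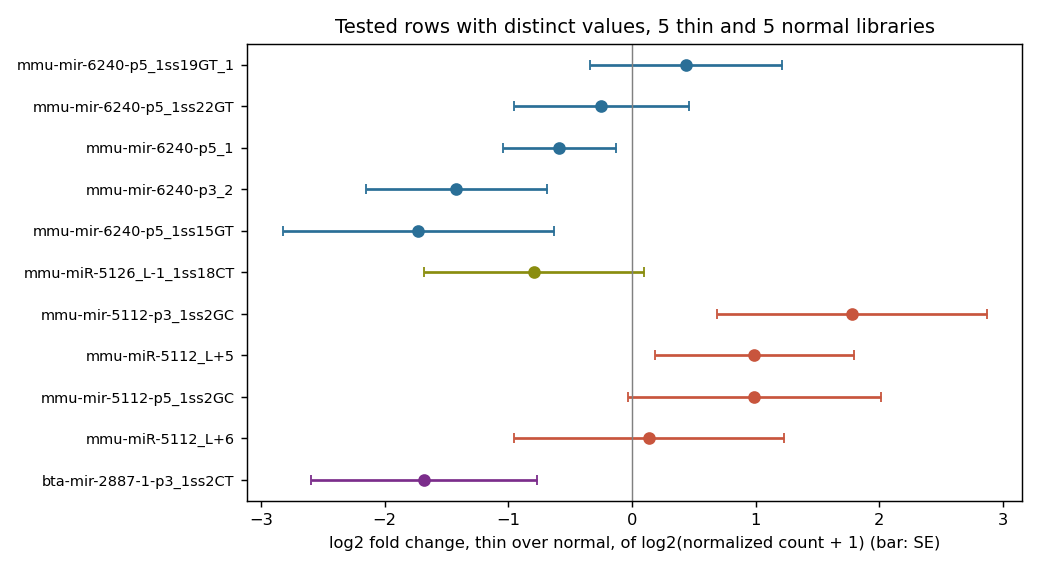
Points are log2 fold changes (x axis, thin over normal, of log2(normalized count + 1)) of the 11 tested sets of distinct values, coloured by name, and bars are standard errors. The 4 miR-5112 sets lie right of 0, between 0.14 and 1.78, and 4 of the 5 miR-6240 sets lie left of it.

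Other miRNA names known to match structural RNA were read for comparison. Of 22 listed names, 7 were present, with 37 entries, of which 10 were tested and held 8 distinct sets of values. Of these 8, 3 rose in thin camels (limma adjusted p at most 0.0118), while 9 or 1.92% of all tested entries were called in either direction. All 3 were isomiRs of miR-1246, which in human matches the spliceosomal U2 RNA, so they are not separate cases. The median log2 fold change of the 8 was 1.03, against -0.01 over all tested, and it includes these isomiRs, at 2.46 to 2.77. None of the other sets was called, and their fold changes, given below, lay on both sides of 0. The entry mmu-mir-6236-p3_1ss18GA_3, another name discussed as ribosomal, averaged 34.2 ± 9.07 in thin and 80.4 ± 29.01 in normal camels, with a fold change of -1.16 ± 0.43 on the log2 scale (limma adjusted p = 0.258). The other tested miR-6236 sets were at -0.74 ± 0.69 for mmu-mir-6236-p3_1ss5CG and at 0.72 ± 0.72 for mmu-mir-6236-p3_1ss4CG, so the name had no single direction. Over the 10 libraries the level of mmu-mir-6236-p3_1ss18GA_3 had a Spearman correlation of 0.89 with miR-2887, and 0.86 without the 3 deepest. The same values were listed under mmu-mir-6236-p3_1ss18GA_1 and mmu-mir-6236-p3_1ss18GA_2, so this level belongs to the group. Correlations with miR-2887 were not computed for the other miR-6236 sets. The entry cgr-miR-1260, a name discussed as a transfer RNA piece, averaged 26.6 ± 9.29 in thin and 9.69 ± 2.88 in normal camels (log2 fold change 1.33 ± 0.57, limma adjusted p = 0.358), while nle-miR-1260b_R+1_1ss9AG was at 0.12 ± 0.99.

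Outside the 4 names, the tested entries most like their summed level over the 10 libraries were predicted small RNAs. PC-5p-16386_375 had a Spearman correlation of 0.94, PC-3p-18405_336 of 0.90, PC-5p-4877_1413 of 0.89, and PC-3p-42160_141 and PC-5p-4114_1722 of 0.88 each. At the other end were miR-362-5p (-0.93), the predicted PC-5p-38678_156 (-0.91), hsa-miR-24-2-5p_L+1R-1 (-0.90), hsa-miR-339-5p_R-1_1ss22CT (-0.89) and hsa-miR-155-5p_R-1 (-0.84). These are the extremes over the tested entries outside the 4 names, and all libraries share their depth and scaling.

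A run of 14 or more bases of any of the 39 entries was found in 7 other entries, all of them overlapping miR-5126. They were 5 entries named miR-10001, 1 named miR-4332 and the predicted PC-3p-283597_11. None of the 7 was abundant enough to be tested, and the highest value among them was 10.03 normalized counts. No entry outside the name shared such a run with miR-6240, miR-5112 or miR-2887.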

How the data were processed

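Small RNA libraries of plasma exosomes from 5 thin and 5 normal camels were read from 1 table of the whole series. Per the labels' protocols, the authors used mirVana RNA, TruSeq small RNA libraries and an Illumina HiSeq instrument, and filtered reads with ACGT101-miR. The deposited values are a signal that the column headers call normalized counts; how they were scaled, the aligner, the miRBase version and the genome build are not given in the sources used here. Within a library, low values fell on whole steps (for 98.8% to 99.9% of those worth up to 200 reads, with a tolerance of 0.02), which gave the estimated reads. These steps were read from low values, so the reads serve only for depth and no count test was run. Precision follows from those reads and from 5 animals per group.

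Entries of 1 name with identical values in all libraries were summed once. The 468 entries at 10 or more in at least 5 libraries were fitted with limma 3.58.1 (R 4.3.3, mean trend, group as only term) on log2(value + 1), with Benjamini-Hochberg adjustment at 0.05; fold changes on this scale understate changes of low entries. The procedure was tested on simulated data with independent, normally distributed noise. The planted shifts were larger than the fold change of any tested set of the 4 names, so the test does not tell how such smaller changes fare. Python 3.11.15, pandas 2.3.3 and scipy 1.17.1 did the rest. The names, lists and alternatives were chosen with earlier results of these data known. All entries of the 4 names, the 5 most and least like entries by Spearman correlation, entries sharing 14 bases and the listed structural RNA names and markers were named by rule; other names were chosen after their values were seen. No genome was used, and 2 emptied lines of the table were not used here.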

Additional observations from a re-analysis of the deposited data

Results flagged for a closer look

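In groups of 5, a library was marked when its gap to the nearest other library exceeded 0.71 of the group's range, and 32 groups were looked at. For independent, normally distributed values that limit marks about 1 in 20 groups. The values here are counts, and sums were looked at together with their own entries, so the marks cannot be read against that rate. The summed miR-2887 level of thin 2 was 0, against 26.3 to 36.1 in the other thin libraries. The summed miR-5112 level of normal 2 was 881, against 22.7 to 261 in the other normal libraries, and the same library was marked for both leading miR-5112 entries. There mmu-mir-5112-p3_1ss2GC was 414, against 4.15 to 122, and mmu-mir-5112-p5_1ss2GC was 374, against 5.12 to 102. The entry mmu-miR-5112_L+5 was 96.0 in thin 2, against 10.8 to 35.4 in the other thin libraries. The entry mmu-mir-6240-p5_1ss15GT was 58.8 in normal 1, against 4.46 to 19.9 in the other normal libraries.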

How the results depend on the processing

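No entry of the 4 names passed the threshold under any alternative (363 values). Over all small RNAs, 9 were called, and 15 with no filter, 4 with limma without trend, 3 without normal 4 and normal 5, 5 without the 3 deepest libraries, and 6 to 11 with single libraries left out; 9 were called with the replicate block. Whether the numbers in the titles pair the libraries was not settled. Same-numbered thin and normal libraries correlated at -0.20 to 0.52 in their deviations, above 0.1 in 3 of 5 pairs. Of the 5 thin libraries, 2 correlated best with their own number. With the replicate block the SE of the leading miR-6240 group was 0.30 in place of 0.46, and that of mmu-mir-6240-p3_2 was 0.77 in place of 0.73. The summed level of the 4 names differed by -0.25 (log2, thin over normal), from -0.54 to 0.07 with single libraries left out and above 0 without normal 2 alone; it was -0.93 without normal 4 and normal 5 and -0.68 without the 3 deepest libraries. As a share of the library the difference was -0.0243 percentage points, from -0.0516 to 0.0205 with single libraries left out, -0.0918 without normal 4 and normal 5 and -0.0710 without the 3 deepest libraries. With equal library totals the median over the tested entries, in log2, was 0.17 in place of -0.01, and no set of the 4 names that was still tested changed sign. Leaving out single libraries for each name, and keeping identical entries once, were chosen after seeing the data. Values of miR-2887 and miR-5126 in thin libraries rest on at most 54 and 30 estimated reads outside thin 4, which limits both.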

Other observations

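The box A letters searched for in miR-5112 were also found in 6 entries outside the 4 names, of which 5 were named miR-5106 and 1 was predicted. The only one listed in all 10 libraries, mmu-mir-5106-p5_1ss1AG, held 145, 276, 163, 32.3 and 276 normalized counts in thin 1 to 5, against 138, 296, 72.9, 32.4 and 14.6 in normal 1 to 5. Thin 4, normal 4 and normal 5 were its lowest libraries, as they were for miR-5112. It averaged 179 ± 102 in thin and 111 ± 114 in normal camels (SD, 5 animals per group), and its fold change was 1.05 ± 0.80 on the log2 scale (limma adjusted p = 0.681). This entry was chosen after its values were seen.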
